A study of Mus musculus with 4 samples.

Results

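The genes described here are 9 components of the tight junction, chosen by name: the claudins Cldn1, Cldn3, Cldn4, Cldn7 and Cldn8, occludin (Ocln), the scaffolds Tjp1 (ZO-1) and Tjp3 (ZO-3), and cingulin (Cgn). All 9 had a row among the 22524 genes counted per library, and 8 passed the filter on low counts that left 14265 genes for testing. RNA was sequenced from cells of mouse pre-tumorigenic dermal hyperplasia, sorted for the red fluorescent protein tdTomato, with 2 libraries in each of 2 groups. Mice of both groups carried NrasQ61K under the tyrosinase (Tyr) promoter, the tamoxifen-dependent recombinase CreERT2 under the same promoter and a Cre-activated tdTomato reporter at R26R, and tamoxifen was given in vivo. The group called Ezh2Y646N carried in addition a Cre-activated Ezh2Y646N allele at ColA1, a mutant of the histone H3 lysine methyltransferase Ezh2, and the group called NrasQ61K (below, NrasQ61K only) did not. Neither the ages of the mice nor the number of animals per library is stated. P-values therefore measure the spread between these libraries, which may be technical.

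Tight junctions seal the space between neighbouring epithelial cells. Claudins are membrane proteins whose strands form the seal and set which ions pass, occludin is a further membrane protein of the strand, and ZO proteins bind claudin tails and link them to actin. Cingulin and its relative paracingulin (Cgnl1) lie on the cytoplasmic face and connect the junction to myosin and microtubules. In skin these junctions work as a barrier in the granular layer of the epidermis, and mice without Cldn1 die soon after birth from loss of water.

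The scaffold genes Tjp3 and Cgn rose with Ezh2Y646N, and the other 6 tested genes of the list did not pass the threshold. Tjp3 was 4.79-fold and Cgn 2.93-fold higher by the fitted ratio, on the log2 scale 2.26 and 1.55. Without NrasQ61K replicate 2 the log2 value of Tjp3 was 2.88, and without NrasQ61K replicate 1 it was 1.85 (edgeR's adjusted p = 0.000276 and 0.00541). The related gene Cgnl1, which is outside the 9, rose as well. Because the RNA of all 3 moved in the same direction, their promoter windows from RefSeq (GRCm38.p6) are shown, each ending at or just before the annotated start, on the minus strand, 5′ to 3′. Capitals mark matches on either strand to 3 motifs: CCGGTT, the core of the Grainyhead-like motif, CAGGTG, an E-box bound by Snail and Zeb factors, and GGGNGGG, a GC box bound by Sp and Klf factors.
Tjp3, chr10:81291582-81291831: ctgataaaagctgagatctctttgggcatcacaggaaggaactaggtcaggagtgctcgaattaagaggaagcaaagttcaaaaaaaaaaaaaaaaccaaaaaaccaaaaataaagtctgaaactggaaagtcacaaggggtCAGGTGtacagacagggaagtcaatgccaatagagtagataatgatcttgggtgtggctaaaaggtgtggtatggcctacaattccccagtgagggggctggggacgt
Cgn, chr3:94786493-94786732: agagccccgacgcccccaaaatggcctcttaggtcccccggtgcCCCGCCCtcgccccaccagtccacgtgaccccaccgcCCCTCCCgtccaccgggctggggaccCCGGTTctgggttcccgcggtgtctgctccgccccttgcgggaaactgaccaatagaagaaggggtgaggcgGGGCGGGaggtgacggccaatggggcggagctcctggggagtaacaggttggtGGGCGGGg
Cgnl1, chr9:71771603-71771852: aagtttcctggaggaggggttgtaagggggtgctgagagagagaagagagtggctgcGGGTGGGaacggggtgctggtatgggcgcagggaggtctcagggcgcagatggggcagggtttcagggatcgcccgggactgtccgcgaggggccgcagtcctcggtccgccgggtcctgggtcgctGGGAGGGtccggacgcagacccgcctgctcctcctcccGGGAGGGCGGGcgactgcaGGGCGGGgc
The Tjp3 window is the upstream of 2 annotated starts. The 250 bases before the other start lie in annotated exon sequence and are not shown, and 10 bases of annotated exon were left off the Cgn window.

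The 3 windows differed in base composition. The Tjp3 window shown had a GC content of 43.2% and 2 CpG dinucleotides in 250 bases. Cgn had 70.4% and 19, and Cgnl1 had 70.8% and 20. The 250 bases before the other Tjp3 start had 57.2% and 7, with an E-box at base -17 and a GC box at base -23. The median over 32851 windows of this length was 52.4% and 6. The Grainyhead-like core was found in Cgn, starting at base -143 from the start site, and in neither of the other windows printed. The E-box was found in Tjp3 at base -108 and in neither of the others, and the GC box was found 4 times in Cgn, 5 times in Cgnl1 and not in the Tjp3 window shown. Of all windows, 5.62% held the Grainyhead-like core, 17.2% the E-box and 44.8% the GC box. Windows were found for 8 of the 9 genes, all but Cldn8. Counting every start, 3 of these 8 genes had the Grainyhead-like core (Cgn, Cldn7 and Ocln), 4 had the E-box and 8 had the GC box. These 8 genes had 11 windows, so counts per gene are not on the same scale as shares of all windows. An AP-1 motif, TGANTCA, was in Cldn4 only among the 8 genes (6.75% of all windows), and a TATA box, TATAAA, in 0 of them (12.4%). In Cgnl1 the GC box matches at bases -28 and -24 overlapped each other. A match describes these letters and is not evidence of binding.

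Total counts ranged from 14808801 to 20600297 per library, and values are CPM, counts divided by the library size after edgeR's trimmed mean of M-values (TMM) scaling. The biological coefficient of variation was 27.9%. Ezh2 itself was at 135 and 91.6 CPM with Ezh2Y646N, against 171 and 75.1 CPM with NrasQ61K only. Counts per gene do not separate the mutant from the endogenous transcript, so this gene does not check the labels. The labels call the cells melanocytic, and melanocyte markers were present in every library, with summed CPM of the 10 genes between 2656 and 3970. Markers of epithelia were also abundant in every library, with 16817 to 35944 CPM summed over 10 pan-epithelial genes, which include the cadherin Cdh1 and the keratins Krt5 and Krt14. Bulk counts do not say which cells the junction RNA came from. In such counts, fewer cells of a type and less RNA per cell cannot be told apart.

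Over all 14265 genes, edgeR's quasi-likelihood test with Benjamini-Hochberg adjustment called 253 at an adjusted p under 0.05, or 1.77%, of which 157 (1.10%) were higher and 96 (0.673%) lower with Ezh2Y646N. Of the 8 listed genes tested, 2 were called higher and 0 lower, or 25.0%. The list was chosen with earlier results of these data known, so this share and those below describe it and do not test it. At an unadjusted p under 0.05 the count was 4 of 8, against 14.3% of all genes. For 4 of these 8 genes the groups were apart, 3 higher and 1 lower, against 44.2% of all genes (21.1% higher and 23.1% lower), so that share by itself is close to the background. The median log2 fold change of the 8 was 0.64, against -0.04 over all genes tested, with 7 above 0 and 1 below.

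**Figure D1:**
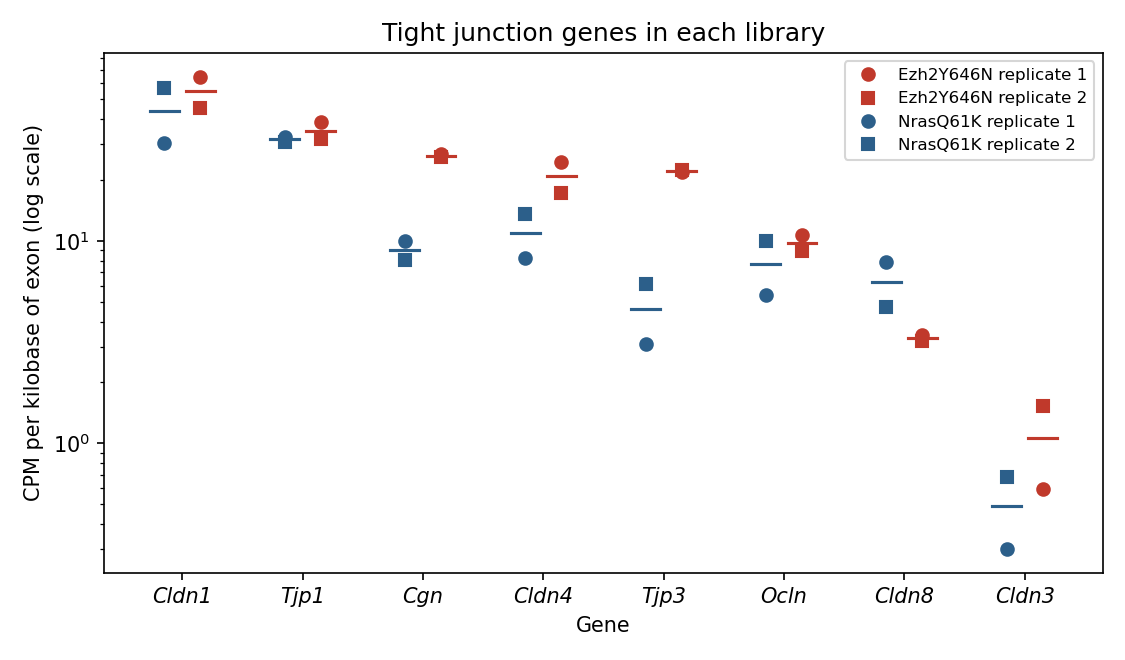
Level of each listed gene except Cldn7 in every library, in CPM per kilobase of exon on a log axis; circles are replicate 1, squares replicate 2, bars group means, red Ezh2Y646N and blue NrasQ61K. The 2 Ezh2Y646N libraries of Tjp3 sit at 22.0 and 22.5, above 3.11 and 6.15 in NrasQ61K, while Tjp1 lies between 30.9 and 38.5 in all libraries.

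The scaffolds are described first. Tjp3 (ENSMUSG00000034917, GRCm38 chromosome 10, 81273207 to 81291581, minus strand) encodes ZO-3, a scaffold largely limited to epithelia. It was at 81.7 and 83.6 CPM with Ezh2Y646N, against 11.6 and 22.8 CPM with NrasQ61K only. Both Ezh2Y646N libraries were far above both others, and the 2 NrasQ61K libraries differed 1.97-fold between themselves. Group means of 82.7 ± 1.35 and 17.2 ± 7.96 CPM (SD, n = 2 libraries per group) gave a fitted log2 ratio of 2.26, with a standard error (SE) of 0.34 and an edgeR adjusted p of 0.0306. The last 40 bases of Tjp3 overlap the gene Apba3 on the opposite strand, and while the library kit was stranded, the labels do not say whether counting used strand. Apba3 had a log2 fold change of -0.13 (edgeR's adjusted p = 0.911).

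Cgn (ENSMUSG00000068876, chromosome 3, 94760069 to 94786492, minus strand) encodes cingulin. It was at 162 and 157 CPM with Ezh2Y646N, against 60.2 and 48.5 CPM with NrasQ61K only. Replicates lay close together in both groups, and the groups were apart. Means of 159 ± 3.57 and 54.4 ± 8.30 CPM (SD over 2 libraries) gave a fitted log2 ratio of 1.55, an SE of 0.23 and an edgeR adjusted p of 0.0299. Both calls were lost without Ezh2Y646N replicate 1, where the adjusted p was 0.0549 for Tjp3, at a log2 fold change of 2.28, and 0.0797 for Cgn, at 1.53. They were also lost when libraries were scaled on the pan-epithelial genes, where the log2 fold change was 1.89 for Tjp3 (adjusted p = 0.232 in edgeR) and 0.94 for Cgn (0.739).

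Tjp1 (ENSMUSG00000030516, chromosome 7, 65296165 to 65527781, minus strand) encodes ZO-1, the scaffold found in junctions of most cell types. It was at 301 and 248 CPM with Ezh2Y646N, against 254 and 241 CPM with NrasQ61K only. The ranges overlapped, and no difference was detected. Its fitted log2 ratio was 0.15 (SE 0.23, edgeR's adjusted p = 0.859). Per kilobase of exon, the level of Tjp3 relative to that of Tjp1 was 0.571 and 0.710 with Ezh2Y646N, against 0.0956 and 0.199 with NrasQ61K only. Among 7 such ratios, this difference had an exact 2-sided permutation p of 0.333 (adjusted 0.583), the smallest that 2 libraries against 2 can give.

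Among the membrane proteins no listed gene passed the threshold. Cldn4 (ENSMUSG00000047501, chromosome 5, 134945119 to 134946934), a claudin that lowers sodium leak and a receptor of Clostridium perfringens enterotoxin, was at 44.7 and 31.4 CPM with Ezh2Y646N, against 14.9 and 24.7 CPM with NrasQ61K only. The groups did not overlap, though the nearest libraries were close. The log2 fold change was 0.94 (SE 0.33, unadjusted p = 0.0216, edgeR's adjusted p = 0.229). It passed the threshold in edgeR with no filter on low counts (adjusted p = 0.0337) and without NrasQ61K replicate 2 (0.025, log2 fold change 1.39). With the other libraries left out in turn its adjusted p was 0.268 to 0.722.

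Cldn8 (ENSMUSG00000050520, chromosome 16, 88560828 to 88563183), which partners Cldn4 in the kidney collecting duct, was the only listed gene tested with a value below 0. It was at 8.05 and 7.53 CPM with Ezh2Y646N, against 18.5 and 11.1 CPM with NrasQ61K only. Both NrasQ61K libraries were above both others, with most of the spread in that group. The log2 fold change was -0.92 (SE 0.36, unadjusted p = 0.0330, edgeR's adjusted p = 0.287), and from -1.20 to -0.52 with a library left out.

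Cldn1 (ENSMUSG00000022512, chromosome 16, 26356642 to 26371841) was at 314 and 219 CPM with Ezh2Y646N, against 148 and 275 CPM with NrasQ61K only. Ocln (ENSMUSG00000021638, chromosome 13, 100496507 to 100552718) was at 44.9 and 37.8 CPM in the former and at 22.8 and 42.1 CPM in the latter. For both genes NrasQ61K replicate 1 was the lowest library and the other 3 were mixed. Their log2 fold changes were 0.33 (SE 0.34) and 0.35 (SE 0.32), with edgeR adjusted p-values of 0.770 and 0.732. Without NrasQ61K replicate 1 they were -0.048 and -0.025. The level of Ocln relative to that of Cldn1, per kilobase, was nearly the same in all 4 libraries, at 0.164 and 0.198 with Ezh2Y646N and 0.177 and 0.175 without. The ratio of Cldn4 to Cldn1 was 0.380 and 0.382 against 0.269 and 0.240, with groups apart, again at the smallest exact permutation p of 0.333.

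Cldn3 and Cldn7 were near the limit of detection. Cldn3 (ENSMUSG00000070473, chromosome 5, 134986214 to 134987472), the neighbour and close relative of Cldn4, had 13 and 28 counts with Ezh2Y646N, against 6 and 18 with NrasQ61K only. The groups overlapped, and the log2 fold change of 1.07 had an SE of 0.88 (edgeR's adjusted p = 0.686) and was 0.24 without Ezh2Y646N replicate 2. Cldn7 (ENSMUSG00000018569, chromosome 11, 69964779 to 69967885), which lies along the lateral membrane in many epithelia, had 2 and 0 counts in the former and 15 and 4 in the latter and was not tested. The library with 0 counts allows a level of up to 0.207 CPM, and NrasQ61K replicate 1 reached 0.948 CPM.

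The order of levels within a group can be read only per length. In the NrasQ61K libraries the mean CPM per kilobase of exon was 43.7 for Cldn1 and 31.7 for Tjp1, whose ranges overlapped, followed by 10.9 for Cldn4, 9.03 for Cgn, 7.69 for Ocln, 6.28 for Cldn8 and 4.63 for Tjp3. From Cldn4 to Tjp3 each gene's range overlapped that of the next. In the Ezh2Y646N libraries the order was Cldn1 at 55.1, Tjp1 at 35.1, Cgn at 26.4, Tjp3 at 22.3, Cldn4 (24.6 and 17.3 in its 2 libraries), Ocln at 9.80 and Cldn8 at 3.31. Here Tjp3 and Cldn4 overlapped, and the other neighbours did not. Cldn3 and Cldn7 were lowest in both groups, at 1.06 and 0.0295 against 0.493 and 0.293, and overlapped each other in the NrasQ61K libraries.

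**Figure D2:**
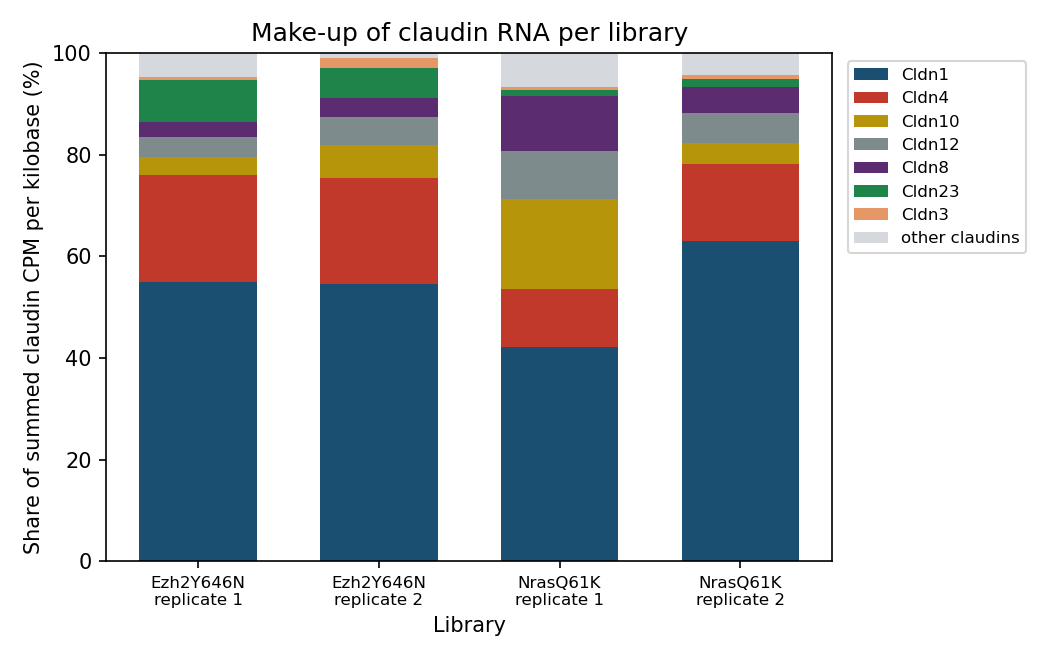
Share of each claudin in the summed CPM per kilobase of 24 claudins, stacked to 100% for each library. Cldn1 is the tallest segment in all 4 libraries, between 42.2% and 63.0%, and the Cldn23 segment is taller in both Ezh2Y646N libraries than in both NrasQ61K libraries.

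Of 24 claudin genes with a row, 3 had no count in any library, 10 stayed under 1 CPM in every library and 11 reached 1 CPM in at least 1 library. Cldn1 made up 55.0% and 54.6% of the claudin sum per kilobase with Ezh2Y646N, against 42.2% and 63.0% with NrasQ61K only. Cldn4 came next by the mean share, with 20.9% and 20.8% against 11.3% and 15.1%. Of the listed Cldn3, Cldn7 and Cldn8, Cldn8 held the most, with 2.90% and 3.85% against 10.8% and 5.23%. The stacked plot of claudin shares shows NrasQ61K replicate 1 apart from the rest, with 17.8% Cldn10 where the others had 3.71% to 6.52%.

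**Figure D3:**
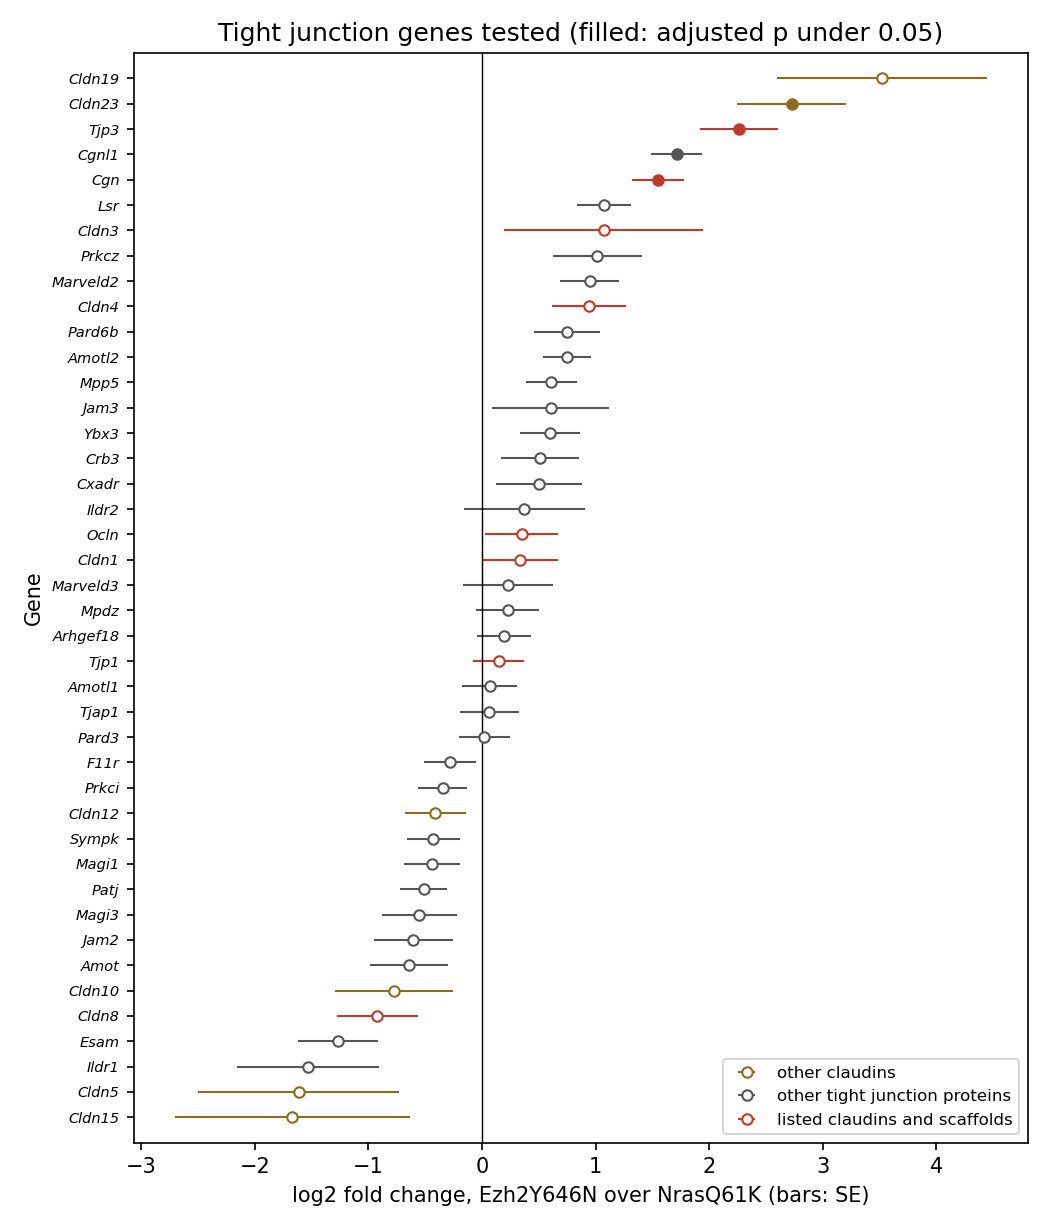
The log2 fold change of Ezh2Y646N over NrasQ61K for the 8 listed genes tested (red), 6 other claudins (brown) and other tight junction proteins (grey), with SE bars; filled points passed an adjusted p of 0.05. The filled points are Cldn23, Tjp3, Cgnl1 and Cgn, all to the right of 0.

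The remaining tight junction genes were taken as 2 lists. Of 20 other claudins 19 had a row and 6 were tested, of which 1 was higher (1.10% of all genes) and 0 lower, with a median log2 fold change of -0.59. The claudin that rose was Cldn23, at 18.1 and 9.12 CPM with Ezh2Y646N, against 1.64 and 2.45 CPM with NrasQ61K only. Its log2 fold change was 2.72 (SE 0.48, edgeR's adjusted p = 0.0418), and the call was lost in limma voom (adjusted p = 0.0769) and without Ezh2Y646N replicate 1 (0.157 in edgeR). Cldn19, a claudin of myelinating Schwann cells, was at 14.7 and 2.69 CPM against 0.316 and 1.15 CPM and did not pass (log2 fold change 3.52, SE 0.92, edgeR's adjusted p = 0.117, and 0.000587 in DESeq2). Its value rested on Ezh2Y646N replicate 1: without that library it was 1.84 (edgeR's adjusted p = 0.626), and without Ezh2Y646N replicate 2 it was 4.27 and was called (0.0157). Cldn5, the main claudin of endothelium, was at 1.61 and 0.207 CPM against 2.46 and 3.21 CPM, also without passing (-1.61, adjusted p = 0.492 in edgeR). Its log2 fold change was -3.73 without Ezh2Y646N replicate 1 and -0.82 without Ezh2Y646N replicate 2.

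Of 29 other tight junction proteins all were tested. Among them 1 was higher (1.10% of all genes) and 0 lower, and the unadjusted p was under 0.05 for 10 (14.3% of all genes). The number higher was 0 without Ezh2Y646N replicate 1 and 3 without NrasQ61K replicate 2. Their median log2 fold change was 0.23, with 19 above 0 and 10 below. Cgnl1 (paracingulin) was at 269 and 267 CPM with Ezh2Y646N, against 74.4 and 88.8 CPM with NrasQ61K only, so the groups lay well apart. Its log2 fold change was 1.72 (SE 0.22, edgeR's adjusted p = 0.0268, and 0.0569 without Ezh2Y646N replicate 1). The level of Cgn relative to Cgnl1 per kilobase overlapped between groups, at 0.783 and 0.764 against 1.05 and 0.712. Lsr (angulin-1) and Marveld2 (tricellulin), proteins of the corners where 3 cells meet, had log2 fold changes of 1.08 (adjusted p = 0.0752 in edgeR) and 0.95 (0.132), with groups apart; DESeq2 called Lsr (adjusted p = 0.00417) and, with NrasQ61K replicate 2 left out, edgeR called both (0.00894 and 0.0348). Lsr was at 183 and 154 CPM with Ezh2Y646N, against 69.3 and 90.5 CPM with NrasQ61K only.

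Among 14 transcription factors known to regulate junction genes, 0 passed in edgeR or limma voom and 1, Grhl3, in DESeq2. In edgeR, 1 passed with no filter on low counts, again Grhl3 (adjusted p = 0.000116), and 3 were higher without NrasQ61K replicate 2. An unadjusted p under 0.05 was seen for 4 in edgeR, and the list's median was -0.05 on the log2 scale. Grhl3, a Grainyhead-like factor needed for the epidermal barrier, was at 105 and 86.7 CPM with Ezh2Y646N, against 29.7 and 47.3 CPM with NrasQ61K only. Its log2 fold change was 1.32 (SE 0.29, edgeR's adjusted p = 0.0701, and 0.00151 in DESeq2). Grhl1, from the same family, was at 0.67 on the log2 scale (adjusted p = 0.223), and Twist1, a factor of mesenchymal cells, at -1.34 (0.208).

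Patterns over the 4 libraries were compared among the 43 tested tight junction genes by the distance between centred log2 CPM profiles, as a description. The closest pair containing a listed gene was Cldn1 and Ocln, each nearest to the other, at a distance of 0.194. The gene nearest to both Cgn and Tjp3 was Cgnl1, at 0.432 and 0.774. Cldn4 was nearest to Lsr (0.324), Cldn3 to Cxadr (0.339), Cldn8 to Amot (0.340) and Tjp1 to Ildr2 (0.266). Genes of 1 library share its depth and cell make-up, and likeness over 4 points carries no test.

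**Figure D4:**
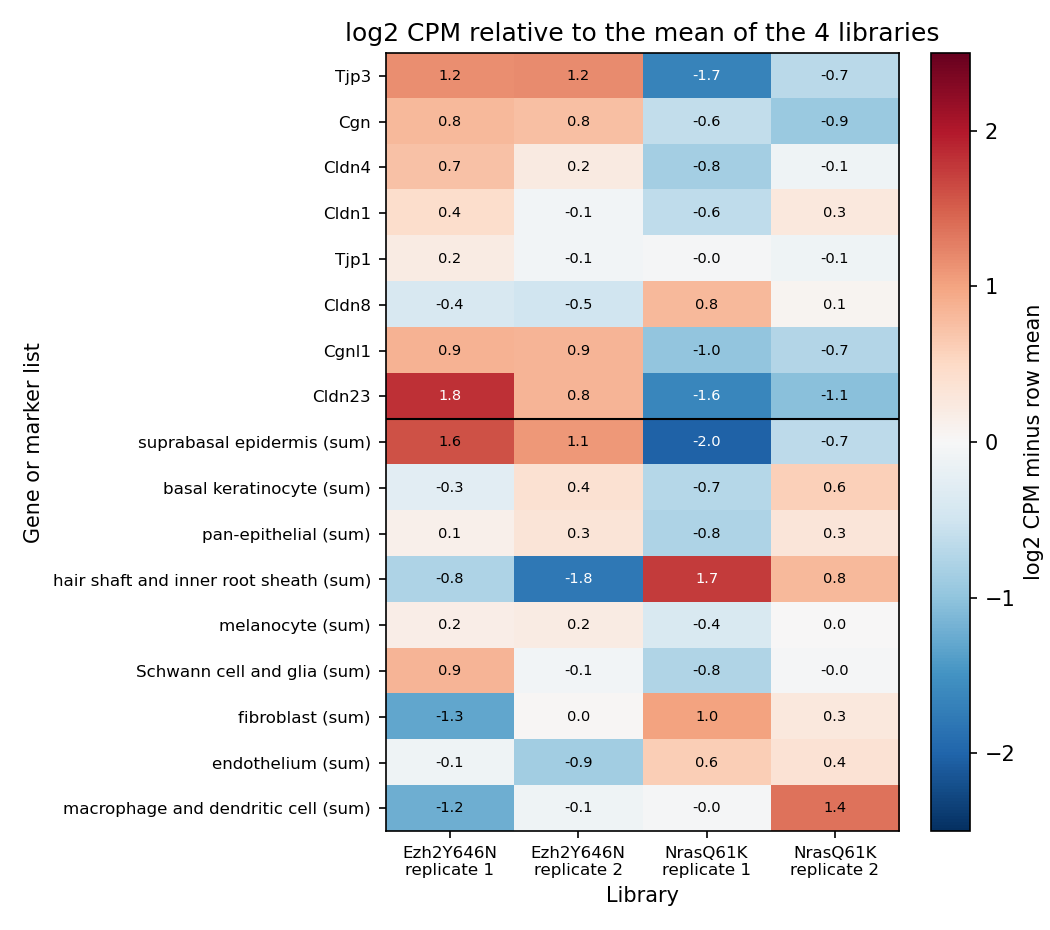
Each row is a tight junction gene (above the line) or the summed CPM of a marker list (below), as log2 CPM minus its mean over the 4 libraries, with columns for libraries; red is above the mean and blue below. The suprabasal sum, like Tjp3, Cgn, Cgnl1 and Cldn23, is red in both Ezh2Y646N libraries and blue in both NrasQ61K libraries, whereas the basal and pan-epithelial sums are not split this way.

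Markers of other cell types moved beside these genes. Of 12 suprabasal epidermis markers 10 were tested, 4 rose and 0 fell, with a median log2 fold change of 2.43 and no tested member below 0. Their summed level was 45929 and 32404 CPM with Ezh2Y646N, against 3738 and 9679 CPM with NrasQ61K only. The most abundant, Krt10 and Krt1, keratins of the layers above the basal one, were at 2.78 and 2.30 on the log2 scale and missed the threshold in edgeR (adjusted p = 0.0514 and 0.0689), while DESeq2 called both. The 4 that rose, named here after their values were seen, were Lor, Ivl, Dmkn and Dsc1, of which Lor and Ivl encode proteins of the cornified envelope and Dsc1 a desmosomal cadherin. Beside them, the background was 1.10% of all genes called higher. The number that rose was 1 without Ezh2Y646N replicate 1, 9 without NrasQ61K replicate 1, 10 without NrasQ61K replicate 2, 9 in DESeq2 and 7 in limma voom. The part of this difference in the values of Tjp3, Cgn, Cgnl1 and Cldn23 was not tested.

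Basal keratinocyte markers gave no such split. Of 6 tested, 0 passed in edgeR, DESeq2 or limma voom, 0 were under 0.05 before adjustment, 1 was called higher without NrasQ61K replicate 2, and their sum was 12642 and 19688 CPM against 9315 and 23146 CPM. Krt14 and Krt5, its most abundant genes, were at -0.36 and -0.01 on the log2 scale. Of the 10 pan-epithelial genes, which also hold Krt5 and Krt14, 0 passed in edgeR, DESeq2 or limma voom, and 1 was under 0.05 before adjustment. For 6 of the 10 the groups were apart and higher with Ezh2Y646N, against 21.1% of all genes. Without NrasQ61K replicate 2 edgeR called 4 higher, and without NrasQ61K replicate 1 it called 1 lower. The most abundant of them, the desmosomal plaque gene Dsp, was at 0.80 (edgeR's adjusted p = 0.448, and 0.0179 without NrasQ61K replicate 2). Their median log2 fold change was 0.44 and their sum was 31516 and 35944 CPM against 16817 and 35632 CPM. The low value belongs to NrasQ61K replicate 1, which was also the lowest library for Cldn1, Cldn4, Ocln and Tjp3.

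Levels were also taken relative to these epithelial genes. Most of the pan-epithelial sum came from Dsp, Krt5 and Krt14 in every library, in proportions that differed between libraries. Dsp was at 15719 and 15878 CPM with Ezh2Y646N, against 6430 and 11756 CPM with NrasQ61K only. Krt5 was at 4932 and 7466 CPM against 3750 and 8762 CPM, and Krt14 at 3847 and 5903 CPM against 3385 and 9118 CPM. No ratio to the suprabasal sum, which differed between groups, was taken, and its part in these values was not tested. Per 1000 CPM of the pan-epithelial sum, Tjp3 was at 2.59 and 2.33 with Ezh2Y646N, against 0.688 and 0.641 with NrasQ61K only, with groups apart. Cgn was at 5.13 and 4.36 against 3.58 and 1.36 on the same scale, with groups apart by less. Relative to Cdh1 alone, the main cadherin of epithelia, Cgn was at 0.179 and 0.186 CPM per CPM of Cdh1 against 0.179 and 0.0622, so that on this scale the groups were not separated. Cldn8 was at 0.255 and 0.209 per 1000 against 1.10 and 0.312, with NrasQ61K replicate 1 well above the rest.

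Hair shaft and inner root sheath markers went the other way. Of 13 tested, 0 rose and 5 fell (0.673% of all genes), with a median log2 fold change of -2.93 and sums of 535 and 264 CPM against 3059 and 1592 CPM. Tchh and Krt71, its most abundant genes, were at -2.51 and -2.43 (edgeR's adjusted p = 0.0499 and 0.0482). The number that fell was 1 without Ezh2Y646N replicate 2, 10 without NrasQ61K replicate 2, 3 with RLE size factors, 10 with library totals and 13 in DESeq2. With RLE size factors the adjusted p of Tchh and Krt71 was 0.0523 and 0.0518. Leaving out Ezh2Y646N replicate 2, NrasQ61K replicate 1 or NrasQ61K replicate 2 also ended both calls, with adjusted p-values of 0.0505 to 0.408, and a non-robust fit ended that of Tchh (0.0511). The tested claudins with log2 fold changes below 0 were Cldn15, Cldn5, Cldn8, Cldn10 and Cldn12 (-1.67, -1.61, -0.92, -0.77 and -0.41), none past the threshold. The groups of Cldn10 overlapped, and a link of these claudins to the hair markers was not tested. Of markers of simple epithelium and skin glands, 1 of 10 tested passed, the lipid enzyme Scd1 at 1.65 on the log2 scale (adjusted p = 0.0306 in edgeR, but 0.115 without Ezh2Y646N replicate 1 and 0.0997 without Ezh2Y646N replicate 2), while the simple keratin Krt8 was at 0.758 to 3.55 CPM and Foxi1 had no count in any library. The sum of this list was 1723 and 2350 CPM against 977 and 2837 CPM, with Krt79 its other most abundant gene.

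Of 10 melanocyte markers 0 passed in edgeR, DESeq2 or limma voom and 0 were under 0.05 before adjustment, with sums of 3880 and 3970 CPM against 2656 and 3457 CPM; Dct and Tyrp1 had log2 fold changes of 0.51 and 0.05. Fibroblast markers were below 0 in 8 of 8, with 2 called lower (Dpt and Cd34; background 0.673%) and sums of 820 and 2038 CPM against 4056 and 2400 CPM. The number called was 0 in limma voom and without either Ezh2Y646N library, 1 with RLE size factors, and 4 in DESeq2, with library totals and without NrasQ61K replicate 2. The collagens Col1a1 and Col3a1 were at -1.13 and -1.20 on the log2 scale (edgeR's adjusted p = 0.371 and 0.328). Endothelial markers were below 0 in 6 of 6, with 0 called in edgeR or limma voom, 1 in DESeq2 (Plvap), 2 under 0.05 before adjustment and sums of 127 and 75.1 CPM against 208 and 174 CPM. Plvap was at -1.20 and Pecam1 at -0.87 on the log2 scale, beside -1.61 for Cldn5. Macrophage and dendritic cell markers were below 0 in 7 of 7, with 0 called in edgeR or limma voom, 2 in DESeq2, 5 under 0.05 before adjustment and sums of 62.1 and 133 CPM against 142 and 370 CPM. Lyz2 was at -1.51 and Cd74 at -1.32. Among Schwann cell and glia markers, Mbp was at 2.39 and Egr2 at -0.80 on the log2 scale, neither called in edgeR (adjusted p = 0.101 and 0.195), and the list had sums of 967 and 515 CPM against 317 and 524 CPM. This list and the melanocyte list share Sox10. The highest sum was in Ezh2Y646N replicate 1, the library in which Cldn19 was also highest. The part of these lists in the values of single claudins was not tested.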

How the data were processed

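The authors deposited 1 table of whole-number read counts for each library, with genes named by Ensembl identifier and no normalization applied. Tools listed in the submitters' processing notes are STAR 2.5.4b, featureCounts, Trimmomatic, bcl2fastq 2.19 and edgeR, with build GRCm38 and no role for each. Annotation release, strand setting and any gene filter used upstream were not given in the sources used here. Symbols, positions and exon lengths came from GENCODE M21, which held 22291 of the gene identifiers and lacked 233. Differences were tested in R 4.3.3 by edgeR 4.0.16 (filterByExpr with a minimum of 10 counts and 15 over all libraries, TMM, robust quasi-likelihood fit, group as the only term), with Benjamini-Hochberg adjustment over all genes and a threshold of 0.05. DESeq2 1.42.0 and limma 3.58.1 (voom) served as alternatives. Each SE is the size of the log2 fold change over the square root of F. Likeness used log2 of CPM with 0.5 added. The 9 genes and all lists were chosen with earlier results of these data known. By a rule, the 9 genes, Ezh2, the 3 genes of smallest p in each of the other claudin, junction protein and regulator lists and the 2 most abundant genes of each marker list were named; others were chosen after their values were seen. The fit was tested on simulated counts with the same 4 libraries and 14265 genes, with 100 genes changed at each fold. It recovered 13% of 2-fold and 83% of 4-fold changes, and it falsely called 10 unchanged genes. Some results are not reported here. A count of 0 was read as allowing up to 3 counts, which covers counting error only.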

Additional observations from a re-analysis of the deposited data

How the results depend on the processing

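The direction of Tjp3, Cgn, Cldn4, Cldn3 and Cldn8 was the same under every alternative run. The number of all genes called was 253, against 1302 with no filter on low counts, 883 in DESeq2 and 92 to 1123 with a library left out. The listed genes called numbered 0 to 3 with a library left out, the 0 being without Ezh2Y646N replicate 1. Their median log2 fold change was 0.34 with no filter, where Cldn7 was added, and 0.22 to 0.90 with a library left out. The labels do not say that same-numbered libraries are paired, and deviations of libraries sharing a number correlated at 0.14. With the replicate number as a block, 1337 genes and 3 listed genes passed, the third being Cldn4 (adjusted p = 0.0243). Library totals without a scaling factor moved the median of all genes from -0.04 to -0.16. Scaling on the pan-epithelial genes used their summed counts, which came mostly from Dsp, Krt5 and Krt14. This scaling, given for the listed genes only, moved fold changes over all genes by a median of -0.55. It turned Cldn1 to -0.040, Ocln to -0.033 and Tjp1 to -0.41. Signs also changed elsewhere, both for values near 0 and for Krt14 and Krt79, at -0.36 and -0.56 in the main fit. With a library left out, Cldn1 ranged from -0.048 to 0.89, Ocln from -0.025 to 0.90, Tjp1 from -0.00042 to 0.27, Ezh2 from -0.55 to 0.59, Krt5 from -0.50 to 0.77, Krt14 from -0.90 to 0.57, Krt79 from -1.29 to 1.02 and Tyrp1 from -0.38 to 0.37. Krt5, at -0.01, was at 0.0015 with RLE size factors, 0.0011 in DESeq2, 0.10 in voom and 0.082 with the replicate block, and Tyrp1 was at -0.061 with library totals. The cause of these changes was not tested. At this depth and spread, changes of 2-fold in single genes were mostly not detectable.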
